A study of Mus musculus with 8 samples.

Results

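The transcripts described here encode the subunits of the mitochondrial respiratory chain and of ATP synthase, measured in the epididymal fat, a depot of white fat in the male abdomen, of 4 mouse lines. Members were the probe sets (the groups of short oligonucleotides that stand for 1 transcript on an Affymetrix array) whose annotated gene symbol begins with Nduf, Uqcr, Atp5 or Cox4 to Cox8, or is Sdha, Sdhb, Sdhc or Sdhd, with Cox8c left out. This rule took 64 of the 13179 probe sets on the chips, 50 on chip A and 14 on chip B, and covered 56 of 6137 named genes. Complex I had 20 member genes, complex II 3, complex III 7, complex IV 11 and ATP synthase 13, and the other 2, Ndufaf1 and Ndufaf4, encode assembly factors of complex I. A further 3 probe sets carried more than 1 symbol, at least 1 of them from these families, and were not members.

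Each line was represented by 1 RNA pool from 20 male mice aged 42 days, hybridised to 1 array of chip A and 1 of chip B, which makes 8 arrays. DU6 mice were bred for high body weight. DU6i was inbred from DU6, DUKs is the unselected control line and DBA an inbred strain. The labels themselves speak only of selected lines, with adiposity, diabetes, insulin and leptin as keywords, and the title of the series puts DU6 and DU6i on 1 side and DUKs and DBA on the other. A pool hides the variation between its animals, and with 1 pool per line no difference between a pair of lines has a replicate check.

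The respiratory chain sits in the inner mitochondrial membrane. Complex I takes electrons from NADH and complex II takes them from succinate, complex III passes them from ubiquinol to cytochrome c, and complex IV hands them to oxygen. Complexes I, III and IV pump protons, and ATP synthase lets the protons flow back to make ATP. White fat cells hold far fewer mitochondria than brown fat cells, in which the chain serves heat production. The subunits measured here are encoded in the nucleus.

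The deposited values are scaled hybridisation intensities, called signals below. They are linear, differ in brightness from probe set to probe set for reasons other than abundance, and are therefore compared only between lines for 1 probe set. The floor below which a signal was not distinguished from background was 1022.8 on chip A and 2258.25 on chip B (95% of negative signals were smaller in size), and lower signals were raised to it before a ratio was taken. A ratio against a raised signal is a bound. Of the 64 member probe sets 17 have names ending in _f_at, the mark Affymetrix uses for probes that may bind several members of a gene family, so the signals of genes such as Cox8b, Cox6a1, Cox4i1, Cox7a2l and Atp5a1 may include related transcripts. All arrays had a trimmed mean of 2500, but the brightest signals differed: the 99th percentile on chip A was 18810 in DU6, 34793 in DU6i, 27552 in DUKs and 23450 in DBA, and on chip B it was highest in DUKs and DU6. Signals from the middle of the pyruvate carboxylase control transcript were 12.7% to 19.5% of those from its 3′ end on the DU6 and DBA arrays, and 45.3% to 55.6% on the DU6i and DUKs arrays. Fat was checked through 18 markers of mature adipocytes, all of which were above the floor in DU6, DU6i and DBA and 17 of which were above it in DUKs. RNA of the male tract was also present. The summed signal of 13 spermatid genes on chip A was 40933 in DU6, 35714 in DU6i, 161192 in DUKs and 81593 in DBA. That of 8 genes of the epididymis and male tract on chip B was 100228 in DU6, 9281 in DU6i, 109478 in DUKs and 169691 in DBA. The pools thus differed in such RNA in other pairs too, DU6 against DU6i among them, and its part in the subunit ratios was not tested.

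Most subunits of the chain were readily measured and differed little between the lines. Of the 56 genes, 45 were above the floor on all 4 arrays of their chip (80.4%, against 30.4% of all 13069 probe sets apart from controls), and 35 had a mean signal over 10000 (62.5% against 8.62%). Member shares count each gene by its brightest probe set, which raises them, while the others count every probe set. By probe sets, 36 of 50 members on chip A and 11 of 14 on chip B were above the floor on all 4 arrays. Ndufa10 and Cox8b were above the floor in only some lines. The 9 at or under it in every line were Ndufa11, Ndufab1 and Ndufb10 of complex I, Sdhc and Sdhd of complex II, Cox6a2 of complex IV, Atp5d and Atp5pb of ATP synthase, and the assembly factor Ndufaf4. For those 9 genes no ratio was formed.

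Across the 45 genes measured everywhere, the line with the highest signal exceeded the line with the lowest by a median of 1.40-fold, and the gap reached 2-fold in 7 genes (15.6%). The same median was 1.63-fold over all 3974 probe sets above the floor in every line, with 25.3% at 2-fold, and 1.65-fold over the 1119 of them brighter than 10000. Among complexes with at least 3 measured genes the span was narrowest in complex I, with a median of 1.36-fold over 16 genes, and was 1.46-fold over 11 genes of ATP synthase, 1.64-fold over 7 of complex III and 1.80-fold over 9 of complex IV. Of the 7 genes at 2-fold, 4 belonged to complex IV, 2 to complex I and 1 to ATP synthase. These spans are of deposited signals, and the order of the complexes did not hold after quantile normalisation. Among the 4 of complex IV, Cox8a then reached a log2 ratio of -0.25 (DU6 over DBA) and Cox6a1 -0.23 (DU6 over DU6i). Cox4i1 reached 0.45 and Cox7a2l -1.07, both for DUKs over DBA. How far these spans differ between complexes beyond error could not be tested with 1 pool per line.

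**Figure D1:**
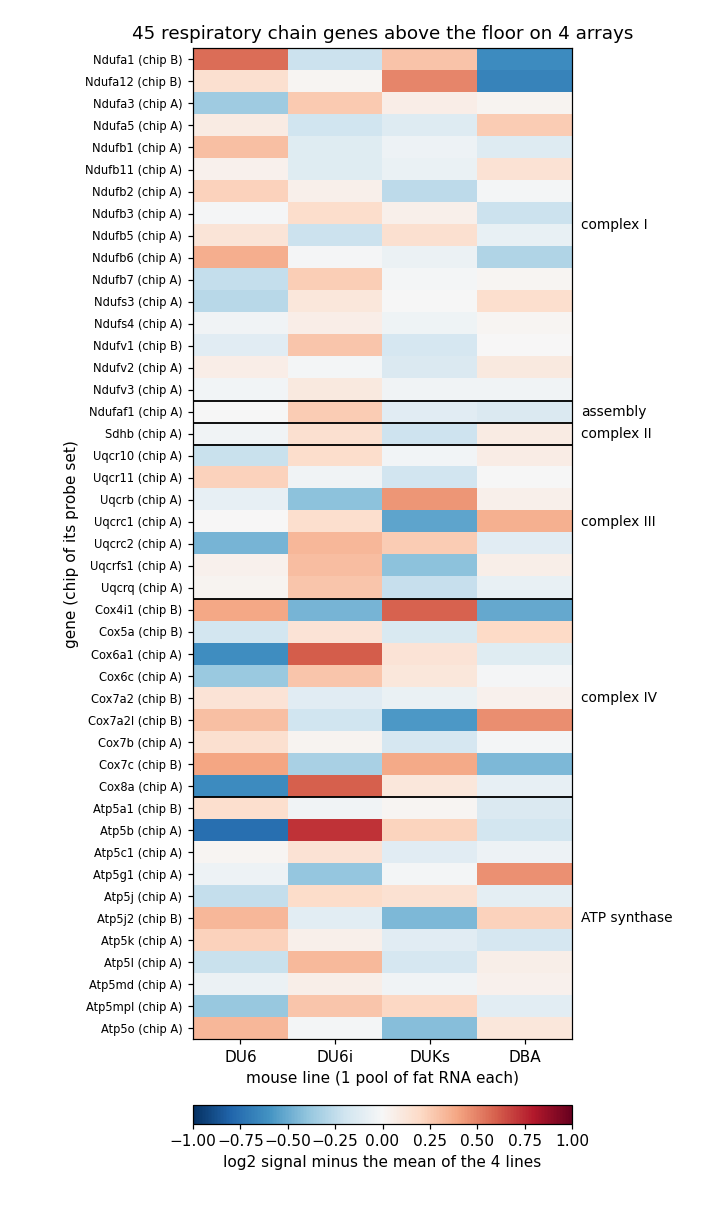
Signals of the 45 respiratory chain and ATP synthase genes above the floor in every line, each shown as log2 signal minus its mean over the lines, with genes in rows grouped by complex and the lines in columns. Most rows are pale, since the median gap between the highest and the lowest line was 1.40-fold, and the strongest colours belong to Atp5b, Cox8a, Cox6a1, Cox4i1, Ndufa1, Ndufa12 and Cox7a2l.

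In DU6 against DUKs the median ratio of the subunits depended on their brightness, in opposite directions on chips A and B. The median log2 ratio of 46 measured genes was 0.034, against 0.047 for all probe sets, with 26 genes higher in DU6 (56.5%, against 54.1% of all probe sets) and 20 lower. The median of the subunits was 0.33 without probe sets over 10000 and 0.22 after cyclic loess, which evens out ratios along the range of signals. On chip A it was 0.34 for 9 genes with mean signals up to 10000 and -0.035 for 27 brighter ones. On chip B it was -0.14 for 2 dimmer genes and 0.18 for 8 brighter ones. Only Cox8b reached 2-fold, higher in DU6, and none was 2-fold lower; among all probe sets 3.91% were 2-fold higher and 6.3% lower. At 1.5-fold, 4 genes were higher and 4 lower (14.8% and 14.5% of all probe sets). The technical SD of a single log2 ratio, taken from genes that have 2 probe sets, was 0.44 in this pair, and 32 of the 46 ratios were smaller than that. This SD measures how far probe sets of a gene disagree and leaves out error that a whole array or pool shares.

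In DU6i against DBA the median of 47 genes was 0.11, against -0.035 for all probe sets and 0.12 for probe sets over 10000. There were 32 genes higher in DU6i (68.1%, against 47.5% of all probe sets) and 15 lower. None reached 2-fold in either direction, where 4.79% of all probe sets were higher and 6.68% lower. At 1.5-fold, 4 genes were higher and 3 lower (14.1% and 17.2% of all probe sets). The technical SD was 0.34, and 32 of the 47 ratios were smaller. After quantile normalisation, which gives the arrays of a chip the same distribution of signals, the median was -0.019 and 22 of the 47 genes were higher.

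The selected line and its inbred derivative differed by more in the brightest subunits. In DU6 against DU6i the median of 47 genes was -0.12, against 0.073 for all probe sets, with 22 higher in DU6 and 25 lower. Of these, Atp5b, Cox6a1 and Cox8a were at least 2-fold lower in DU6 (5.7% of all probe sets), while no gene was 2-fold higher (4.8%). At 1.5-fold, 7 genes were lower (13.3% of all probe sets) and 3 higher (16.3%). Quantile normalisation turned the median to 0.14, and the calls with it, to 0 genes 2-fold lower and 2 higher, Atp5o (log2 ratio 1.08) and Uqcr11 (1.01). Among probe sets over 10000, 10.1% were 2-fold lower in DU6 by the deposited signals. The technical SD in this pair was 0.46, and 34 of the 47 ratios were smaller.

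Between the control lines, DUKs against DBA, the median of 47 genes was -0.067, against -0.0054 for all probe sets, with 21 higher and 26 lower. Ndufa12 and Cox4i1 were at least 2-fold higher in DUKs (6.01% of all probe sets), and Cox8b and Cox7a2l at least 2-fold lower (5.29%). In DU6 against DBA the median was -0.10 (0.0019 for all probe sets), and Ndufa1 was 2-fold higher (3.79%) and none 2-fold lower (4.17%). In DU6i against DUKs it was 0.16 (-0.00071 for all probe sets), with Cox8b 2-fold higher (3.39%) and Cox4i1 2-fold lower (6.76%). At 1.5-fold, 4 genes were higher and 4 lower in DUKs against DBA (14.8% and 15.3%), 5 and 0 in DU6 against DBA (12.3% and 11.4%), and 3 and 3 in DU6i against DUKs (12.8% and 15.6%). The 6 pairs share their 4 lines, so these values are not independent of each other.

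The order of the lines depended on the chip. Of 47 genes, 22 had their highest signal in DU6i (46.8%), 12 in DU6, 9 in DBA and 4 in DUKs, where 23.9% of all probe sets were highest in DU6i. On chip A the share was 21 of 37 genes (56.8%), and it was 56.5% among all 499 probe sets of chip A brighter than 10000. On chip B only 1 of 10 genes was highest in DU6i, and 5 were highest in DU6. After quantile normalisation DU6i was highest for 10 of the 47 genes and DU6 for 17.

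Brightness itself went with the ratios. Among the brightest 10% of chip A, 266 probe sets of which 16 were members, the median log2 ratio of DU6 over DU6i was -0.63, and in the brightest 10% of chip B, with 132 probe sets and 4 members, it was 0.55. The same probe sets gave -0.41 and -0.11 for DU6 over DUKs, and 0.40 and 0.13 for DU6i over DBA. In DU6 against DU6i the median was -0.16 for 37 members on chip A and -0.36 for its 499 probe sets over 10000. On chip B it was 0.34 for 10 members and 0.21 for such probe sets. The summed signal of 10 adipocyte markers on chip A took the same order of lines as the 99th percentile, at 132121 in DU6, 314434 in DU6i, 203243 in DUKs and 167433 in DBA. On chip B 8 others summed to 336620, 209438, 353450 and 191136. What part the array range or the adipocyte signal had in the ratios was not tested, and fewer cells of a type and less RNA per cell cannot be told apart in such pools.

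**Figure D2:**
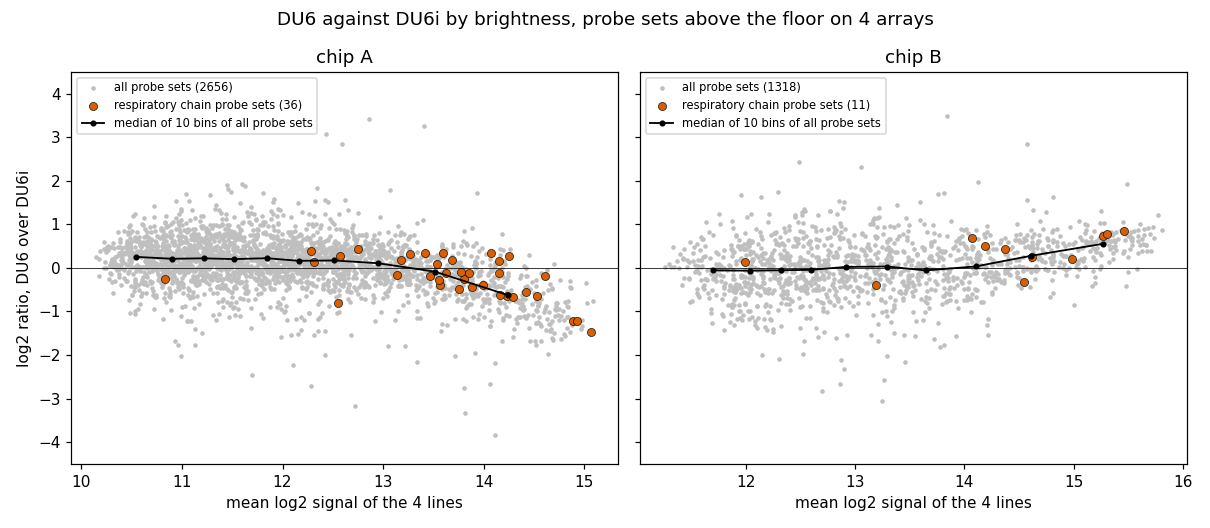
Log2 ratio of DU6 over DU6i against the mean log2 signal of the 4 lines on chips A and B, for all probe sets above the floor on 4 arrays (grey, 2656 and 1318) and for respiratory chain probe sets (orange, 36 and 11), with the median in 10 bins of all probe sets, equal in number, as a black line. The line falls to -0.63 at the bright end of chip A and rises to 0.55 at the bright end of chip B, and the orange points lie mostly toward the bright end.

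Complex I, the NADH dehydrogenase, had the smallest median span of deposited signals among the complexes with at least 3 measured genes. Among its 16 genes measured in every line, Ndufv3, a small accessory subunit, had signals of 12412 in DU6, 13498 in DU6i, 12329 in DUKs and 12313 in DBA. Ndufs4, an accessory subunit needed for a stable complex, had 13596, 14598, 13530 and 14175 in the same order of lines. For both, the 4 values lay within 1.10-fold of each other. The core subunits were also close to level. Ndufv1, which carries the site for NADH, had signals of 8633, 11333, 8346 and 9396, and Ndufv2, an iron-sulfur subunit, 12388, 11656, 10714 and 12689. The iron-sulfur core protein Ndufs3 had 10013, 13151, 12077 and 13663, with DU6 lowest.

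The 2 complex I genes that reached 2-fold were both on chip B. Ndufa12, an accessory subunit that joins late in assembly, had signals of 4546 in DU6, 4130 in DU6i, 5699 in DUKs and 2557 in DBA. DBA was the low line, 2.23-fold below DUKs, and the log2 ratio of that pair went from 1.16 to 1.26 after quantile normalisation. Ndufa1, a small membrane subunit, had signals of 59440, 34784, 49211 and 26132. DU6 and DUKs were its high lines, 2.27-fold separated DU6 from DBA, and that log2 ratio of 1.19 became 0.84 after quantile normalisation.

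At the edges of complex I in the main pairs were accessory subunits with modest ratios. Ndufb2 had the highest ratio in DU6 against DUKs, with signals of 15446 in DU6, 13670 in DU6i, 11008 in DUKs and 12973 in DBA, a log2 ratio of 0.49. Ndufa3 had the lowest, with 14301, 21863, 19185 and 18622, a log2 ratio of -0.42 that lay within the technical SD of 0.44. Ndufa5 was the lowest in DU6i against DBA, with 6421, 5276, 5558 and 7223 and a log2 ratio of -0.45. Ndufa10 was near the floor, at 1010, 1361, 643 and 1127, above it only in DU6i and DBA, and its other probe set was under the floor in all 4 lines. Of the assembly factors, Ndufaf1 had signals of 1817, 2171, 1682 and 1645 on the probe set used, and its other probe set passed the floor only in DBA, at 1301.

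Of complex II, the succinate dehydrogenase, only the iron-sulfur subunit Sdhb was measured. Its signals were 11078 in DU6, 12693 in DU6i, 9813 in DUKs and 12005 in DBA. The lines lay within 1.29-fold, the widest gap being that of DU6i over DUKs.

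Complex III, the cytochrome bc1 complex, had all 7 of its genes measured on chip A. Its largest subunits, the core proteins Uqcrc1 and Uqcrc2, ran in opposite directions. Uqcrc1 had signals of 9066 in DU6, 10137 in DU6i, 6285 in DUKs and 11567 in DBA, so that DUKs was low, 1.44-fold below DU6 and 1.84-fold below DBA. Uqcrc2 had 4357, 7576, 7171 and 5556, with DU6 low, 1.65-fold below DUKs and 1.74-fold below DU6i. The log2 ratio of DU6 over DUKs was 0.53 for Uqcrc1 and -0.72 for Uqcrc2. Both subunits are present in equal number in the complex.

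Other subunits of complex III also differed from each other in the order of lines. The Rieske iron-sulfur protein Uqcrfs1 had signals of 12401 in DU6, 14923 in DU6i, 9095 in DUKs and 12602 in DBA, again lowest in DUKs. Uqcr11, a small subunit, had 22883, 19021, 17053 and 19467, with DU6 high and DUKs low. Uqcrb, which lies close to the ubiquinone site, had 9332, 7431, 13461 and 10250, and here DUKs was highest, 1.81-fold above DU6i. Uqcrb was the lowest of the complex in DU6i against DBA, at a log2 ratio of -0.46.

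Complex IV, cytochrome c oxidase, had the largest median span of deposited signals. Several of its nuclear subunits exist in tissue forms, and for subunit 8 both the general form Cox8a and the form of heart, skeletal muscle and brown fat, Cox8b, were on chip A. Cox8b had signals of 3667 in DU6, 2766 in DU6i, 845 in DUKs and 4932 in DBA. DUKs alone was under the floor. Cox8b was at least 3.58-fold higher in DU6 than in DUKs, at least 2.70-fold higher in DU6i than in DUKs. DUKs was also below DBA, by at least 4.82-fold. Between DU6i and DBA, both measured, the log2 ratio was -0.83. The log2 bounds for DU6 against DUKs and for DUKs against DBA, 1.84 and -2.27, became 1.75 and -2.21 after quantile normalisation. DBA and DU6, the highest lines for Cox8b, also had the lower middle to 3′ signal of the control transcript. Any part of that in the Cox8b ratios was not tested.

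Cox8b differed from Cox8a in which line was low. Cox8a had signals of 20157 in DU6, 47303 in DU6i, 33759 in DUKs and 29520 in DBA, lowest in DU6 and 2.35-fold lower there than in DU6i. Cox6a1, the general form of subunit 6a, had 19761, 46095, 33336 and 27923, the same order of lines, with DU6 2.33-fold below DU6i. Its muscle form Cox6a2 was under the floor in every line on both of its probe sets. After quantile normalisation the log2 ratio of DU6 over DU6i moved from -1.23 to -0.23 for Cox8a and from -1.22 to -0.23 for Cox6a1.

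Promoter sequences of these 3 subunits are shown to compare their motifs. They are reference sequences and not those of the 4 lines, and no link to the order of lines was tested. They come from RefSeq on GRCm38.p6, lie on the minus strand and run 5′ to 3′ from 180 bases before to 30 bases after the annotated start. Capitals mark matches to CCGGAAG, a core of ETS family sites (printed here as its reverse complement), to the 10-base palindromic site of nuclear respiratory factor 1 (in capitals near the left end of Cox6a1), or to TATAAA.
Cox8a, chr19:7217587-7217796: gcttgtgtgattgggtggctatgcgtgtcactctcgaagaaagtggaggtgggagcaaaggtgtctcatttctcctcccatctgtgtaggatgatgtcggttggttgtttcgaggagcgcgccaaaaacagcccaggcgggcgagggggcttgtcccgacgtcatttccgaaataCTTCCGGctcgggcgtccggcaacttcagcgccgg
Cox6a1, chr5:115348929-115349138: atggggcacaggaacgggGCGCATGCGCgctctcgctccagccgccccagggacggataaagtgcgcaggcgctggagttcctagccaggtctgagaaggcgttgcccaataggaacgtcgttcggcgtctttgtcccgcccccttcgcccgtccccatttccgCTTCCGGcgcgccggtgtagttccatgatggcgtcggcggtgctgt
Cox8b, chr7:140900417-140900626: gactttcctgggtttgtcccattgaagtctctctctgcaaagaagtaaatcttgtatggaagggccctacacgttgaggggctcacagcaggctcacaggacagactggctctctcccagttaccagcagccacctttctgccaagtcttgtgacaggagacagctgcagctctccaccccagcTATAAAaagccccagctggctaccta
Cox8a had an ETS match 5 bases before the start, and Cox6a1 had one 16 bases before it and a nuclear respiratory factor 1 match 162 bases before it. The Cox8b stretch had none of these, and its TATAAA began 4 bases after the annotated start. G and C made up 56.0% of the 300 bases around the Cox8a start, 63.0% for Cox6a1 and 48.3% for Cox8b.

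Across the subunits, promoters were found for 47 of the 56 genes, and motifs were sought on both strands in the 300 bases from 250 before to 50 after the start. The nuclear respiratory factor 1 site was present in 5 of 47 genes (10.6%), against 2.0% of 4891 genes on the chips and 0.971% of 32851 promoters in the table. CCGGAAG was present in 13 (27.7%, against 16.9% and 8.86%) and AAGATGGC, a core of YY1 sites, in 5 (10.6%, against 4.68% and 2.75%). At least 1 of the 3 occurred in 20 of 47 genes (42.6%) and in 21.9% of genes on the chips. TATAAA was present in 5 genes (10.6%, against 12.6% of genes on the chips), GGGCGG, of SP1 sites, in 22 (46.8%, against 62.9%) and CCAAT in 16 (34.0%, against 42.6%). These are matches of letters, not sites of binding.

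Brown fat and muscle, tissues that use Cox8b, were followed through their markers. Ucp1, the uncoupling protein that defines brown fat, was under the floor in all 4 lines, with signals of 150.2 in DU6, -12.4 in DU6i, 201.8 in DUKs and 527.8 in DBA. Cidea, another marker of brown fat, passed the floor only in DU6, at 1144, and lay just under it in DBA, at 1018. Slc27a2, a fatty acid transporter on the same list, had 952, 1233, 1976 and 3094, and was at least 1.93-fold lower in DU6 than in DUKs, where Cox8b was higher. Of 9 brown fat markers on the chips 4 were above the floor anywhere, Cox8b among them, and the 7 on chip A summed to 7256 in DU6, 5608 in DU6i, 4365 in DUKs and 10510 in DBA. Of 18 skeletal muscle markers 7 were above the floor anywhere, and Acta1, Ckm and Myl1 were above it in every line. The actin Acta1 had signals of 8907 in DU6, 8729 in DU6i, 7457 in DUKs and 7193 in DBA, and the creatine kinase Ckm 4612, 7449, 7584 and 4197. Myl1, a myosin light chain, had 3025, 2952, 1435 and 1354, 2.11-fold higher in DU6 than in DUKs. Tnnc2, on the same list, was at least 2.41-fold lower in DU6 than in DUKs. Of 5 muscle markers measured in that pair 2 were higher in DU6 and 3 lower, with a median log2 ratio of -0.52. The 10 muscle markers on chip A summed to 14485, 14700, 13391 and 11075, and the 8 on chip B to 8085, 15824, 14769 and 12606. The brown fat sum includes Cox8b itself, and the part of either tissue in the Cox8b ratios was not tested.

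Among genes outside the chain, those with a pattern over the lines most like that of Cox8b were Tgfb1i1, 1110008P14Rik, Sod1, Hes6 and Ankrd46. Likeness was the root mean square distance of centred log2 signals over 4 lines, from 0.17 for Tgfb1i1 to 0.30 for Ankrd46, among 3820 probe sets searched. Tgfb1i1 had signals of 3611 in DU6, 3405 in DU6i, 993 in DUKs and 4340 in DBA. In DUKs both Tgfb1i1 and Cox8b were under the floor and were raised to it, so their closeness in that line was set by the floor. For all these genes the DUKs value of Cox8b in the distance is a bound. Sod1, the cytosolic superoxide dismutase, had 12804, 12971, 4375 and 14293. Each likeness rests on only 4 points.

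Cox7a2l, which joins complexes III and IV into supercomplexes, was on chip B with a pair of probe sets. The brighter had signals of 23096 in DU6, 16259 in DU6i, 12597 in DUKs and 25883 in DBA, and the other 20792, 12851, 14551 and 22503. On both, DU6 and DBA were high and DU6i and DUKs low. The log2 ratio of DUKs over DBA was -1.04 by the brighter and -0.63 by the other, so that the 2-fold difference rested on 1 probe set, and after quantile normalisation the brighter gave -1.07. In DU6 against DUKs they gave 0.87 and 0.51, and in DU6i against DBA -0.67 and -0.81. DU6 and DBA were also the lines with the lower middle to 3′ signal of the control transcript, and any part of that in these ratios was not tested.

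Cox4i1, the general form of subunit 4, had signals of 59085 in DU6, 32748 in DU6i, 68123 in DUKs and 31644 in DBA. Cox7c, a small subunit, had 51958, 31520, 51293 and 28905. In both genes DU6 and DUKs were high and DU6i and DBA low, the order seen for Ndufa1 and for the brightest probe sets of chip B. The log2 ratio of DUKs over DBA for Cox4i1 was 1.11 and became 0.45 after quantile normalisation. Another Cox7c probe set, on chip A, was under the floor in every line.

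Of the other oxidase subunits, Cox6c had signals of 18347 in DU6, 28700 in DU6i, 25590 in DUKs and 23478 in DBA. Its lines had the order of Cox8a and Cox6a1 and spanned 1.56-fold. The rest had narrower spans on the probe set used. Cox7a2, the general form of subunit 7a, had signals of 27556, 23238, 23971 and 25832 in DU6, DU6i, DUKs and DBA. Cox7b had 5687, 5211, 4534 and 5041, and its dimmer probe set, at 740 in DU6 and 1400, 1259 and 1700 in the other lines, put DU6 lowest where the brighter put it highest. Cox5a, with 21009, 26304, 21478 and 27484, lay within 1.31-fold over the lines.

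**Figure D3:**
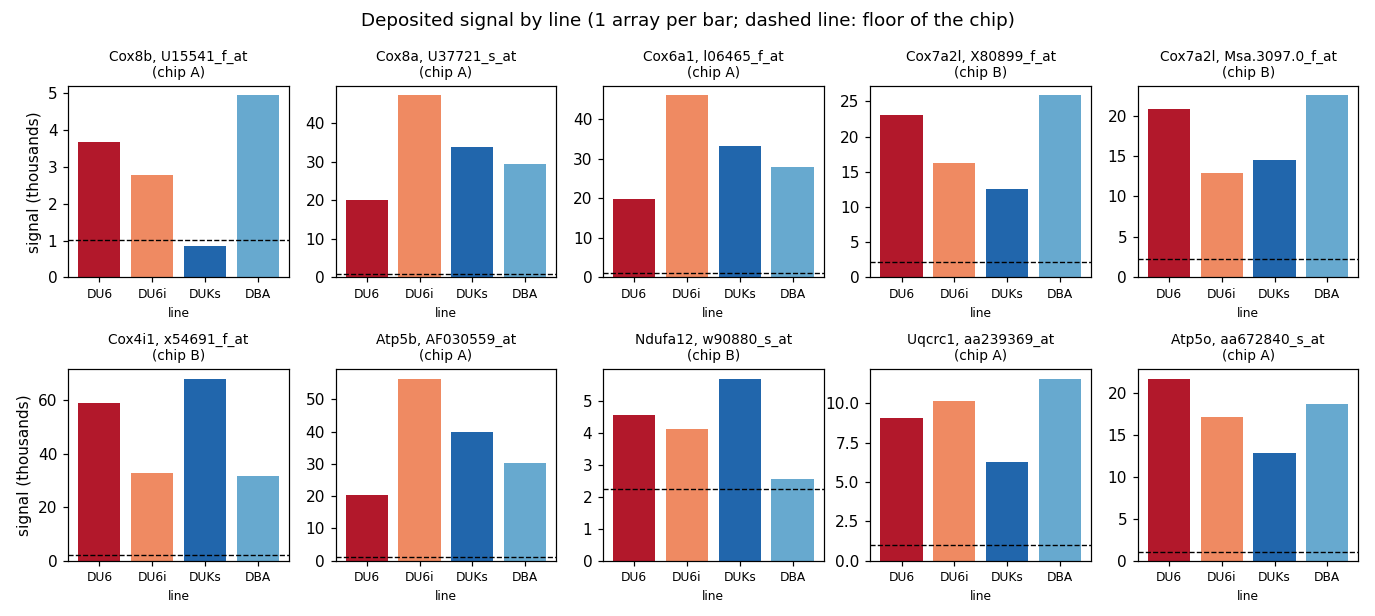
Signals of selected subunits in the 4 lines as bars, 1 panel per probe set with its own linear axis from 0, and the floor as a dashed line. Cox8b is under the floor in DUKs, Cox8a, Cox6a1 and Atp5b are lowest in DU6 and highest in DU6i, and Cox4i1 is highest in DUKs and DU6.

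By deposited signals, ATP synthase had its widest difference in the catalytic subunit. Atp5b, the beta subunit, had signals of 20267 in DU6, 56404 in DU6i, 39931 in DUKs and 30197 in DBA. DU6 was 2.78-fold below DU6i and 1.97-fold below DUKs. After quantile normalisation the log2 ratio of DU6 over DU6i moved from -1.48 to -0.45, and that of DU6 over DUKs from -0.98 to -0.39. Another probe set of Atp5b was under the floor in all lines. Atp5b, Cox8a and Cox6a1 are among the brightest signals of chip A and shared its order of 99th percentiles.

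Its partner, the alpha subunit Atp5a1, was measured on both chips with different results. On chip A the signals were 16756 in DU6, 26471 in DU6i, 19975 in DUKs and 18204 in DBA, and on chip B 36590, 31645, 32864 and 29345. DU6 was the lowest line on chip A and the highest on chip B. The log2 ratio of DU6 over DU6i was -0.66 on chip A and 0.21 on chip B. This was the only subunit measured above the floor on both chips.

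The subunits of the stalks and the membrane part were split. Atp5j, also called F6, of the peripheral stalk, had signals of 12815 in DU6, 17244 in DU6i, 16854 in DUKs and 14165 in DBA, and Atp5mpl, a small membrane subunit, had 14779, 23247, 22130 and 17858. Both had the order of lines of Atp5b. Atp5l, subunit g, with 18795, 27398, 19500 and 22852, was also lowest in DU6 and highest in DU6i. Others had another order. Atp5o, the protein that links the catalytic head to the peripheral stalk, had signals of 21665 in DU6, 17036 in DU6i, 12862 in DUKs and 18674 in DBA, with DUKs lowest and 1.68-fold below DU6. After quantile normalisation that log2 ratio went from 0.75 to 1.29. Atp5j2, subunit f of the membrane part, had 26611, 19689, 15503 and 24795, DUKs lowest again and 1.72-fold below DU6. Atp5g1, which encodes the proton-carrying subunit c, had 11955, 9457, 12177 and 16977, with DBA high and 1.80-fold above DU6i. The central stalk subunit Atp5c1 had 15066, 16424, 13706 and 14321, and the small subunit Atp5md, again lowest in DU6 and highest in DU6i, 17423, 18894, 17745 and 18715, both within 1.20-fold.

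Set side by side, the complexes had these medians. In DU6 against DUKs the median log2 ratio was 0.029 for complex I, 0.26 for complex III, -0.0066 for complex IV and -0.026 for ATP synthase. In DU6i against DBA these medians were 0.13, 0.10, 0.049 and 0.20. In DU6 against DU6i they were 0.088, -0.25, 0.19 and -0.12, and in DUKs against DBA -0.037, -0.16, 0.0082 and -0.063. After quantile normalisation the medians in DU6 against DUKs were 0.11, 0.40, 0.037 and 0.26. Within complex IV the ratios of DU6 over DU6i split by chip, with a median of -0.65 for 5 genes on chip A and 0.51 for 5 on chip B, so that its median of 0.19 describes neither group.

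**Figure D4:**
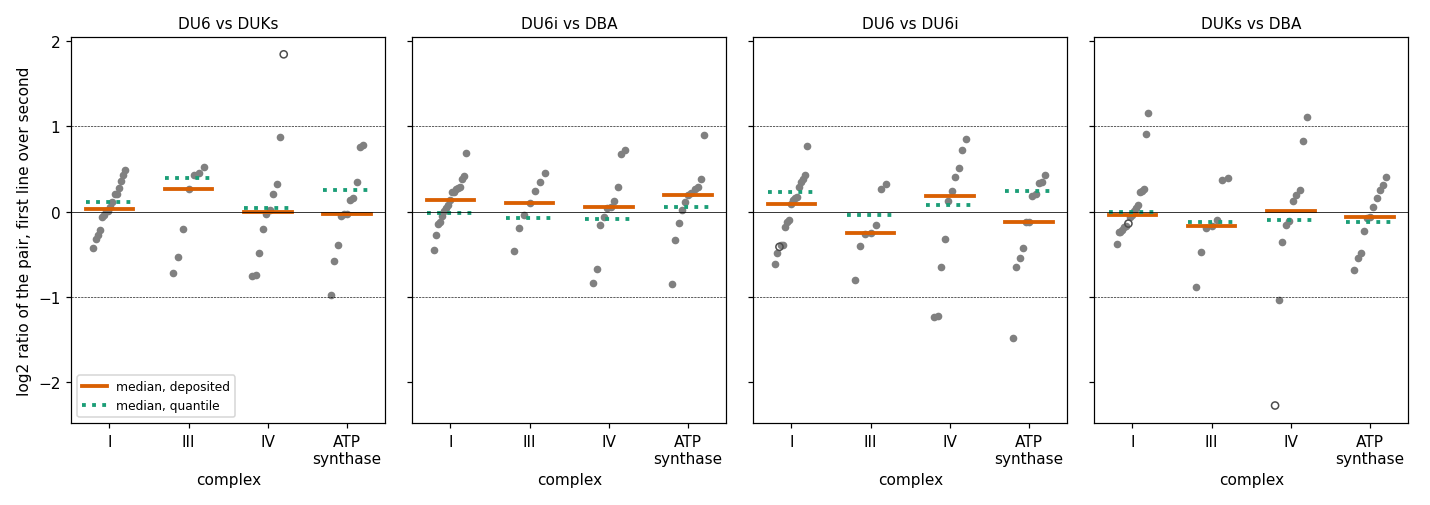
Log2 ratios of member genes by complex in 4 pairs of lines, 1 point per gene, with the median of deposited signals and the median after quantile normalisation marked, bounds as open circles and dashed lines at 2-fold. Medians of complexes I, III, IV and ATP synthase lie between -0.25 and 0.26 for deposited signals and between -0.12 and 0.40 after quantile normalisation, while single genes of complex IV reach 1.84 and -2.27.

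The only comparison with more than 1 pool per side joined DU6 with DU6i and set them against the other 2 lines. No subunit passed limma's test: 0 of 47 genes passed an adjusted p of 0.05 (Benjamini-Hochberg over all probe sets), 0 had an unadjusted p under 0.05, and the smallest adjusted p was 0.9998. Among all 5267 probe sets tested 0 passed (0.0%), 252 had an unadjusted p under 0.05 and the smallest adjusted p was 0.829. Log2 differences of the subunits ran from -0.50 for Uqcrb to 0.50 for Cox8b, with a median SE of 0.30. Because the spread is between lines and DU6i descends from DU6, the sides are not independent samples.

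Signals of both DU6 lines lay above those of both other lines in 8 of 47 genes (17.0%), against 14.6% of all probe sets. These were Atp5c1, Atp5k, Cox7b, Ndufaf1, Ndufb2, Ndufb6, Ndufv3 and Uqcrq. Below both others lay 2 genes, Uqcrb and Atp5g1 (4.26%, against 11.6%). After quantile normalisation Ndufb2 and Ndufv3 left the higher group, Ndufa1 and Uqcrfs1 joined it, and Ndufa3 joined the lower one. Membership took no minimum gap, and Ndufv3 had 12412 in DU6 against 12329 in DUKs. Among the higher ones Ndufb6, an accessory subunit of complex I, had the largest mean difference between the sides in the limma fit (log2 0.36), with signals of 6423 in DU6, 4947 in DU6i, 4790 in DUKs and 4043 in DBA. DU6i and DUKs were nearly level in it.

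Other genes of the mitochondrion were compared through lists chosen for their function. Mitochondrial ribosomal proteins, which make the subunits encoded in mitochondrial DNA, were higher in DU6 than in DUKs in 21 of 24 measured genes, with a median log2 ratio of 0.42, and 54.1% of all probe sets were higher, with a median of 0.047. All probe sets of middle brightness on chip A, where most of this list lies, had medians of 0.17 to 0.22 in this pair. The chain's own median was 0.034, or 0.33 without its probe sets over 10000, and the ribosomal median was 0.38 after quantile normalisation. At 2-fold or more 3 of the 24 were higher and none lower, against 3.91% and 6.3% of all probe sets. Mrpl18 had signals of 5275 in DU6, 3186 in DU6i, 2229 in DUKs and 3679 in DBA, a 2.37-fold difference between DU6 and DUKs, and Mrpl49 was 2.29-fold higher. Mrps12, with 6808 in DU6, -1016 in DU6i, -1236 in DUKs and 4224 in DBA, was at least 3.01-fold higher. DU6 and DBA, its high lines, were also those with the lower middle to 3′ signal of the control transcript. Any part of that in the ratios of this list was not tested. In DU6i against DBA 18 of 27 genes of this list were lower, with a median of -0.21 and none at 2-fold.

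Genes of protein import and chaperones were higher in DU6 than in DUKs in 14 of 15 cases (54.1% of all probe sets), with a median of 0.42 that was 0.30 after quantile normalisation. The medians of 0.17 to 0.22 for all probe sets of middle brightness on chip A apply beside this list too. Timm13, which escorts proteins to the inner membrane, had signals of 12170 in DU6, 8008 in DU6i, 6019 in DUKs and 11402 in DBA and was 2.02-fold higher in DU6. In DU6i against DBA the median of this list was 0.024. Assembly factors of the complexes had a median of 0.34 in DU6 against DUKs, with 10 of 13 higher, and -0.052 in DU6i against DBA. Among them Uqcc1, which helps complex III form, had signals of 2432 in DU6, 1036 in DU6i, 1028 in DUKs and 1854 in DBA. It was 2.37-fold higher in DU6 than in DUKs, and its DU6i and DUKs values lay just over the floor. For Timm13 and Uqcc1 too, DU6 and DBA were the higher lines. Any part of the middle to 3′ signal of the control transcript in these ratios was not tested.

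Carriers of electrons and makers of ubiquinone had medians of 0.29 in DU6 against DUKs and 0.15 in DU6i against DBA. Cycs, which encodes cytochrome c, had signals of 30457 in DU6, 32479 in DU6i, 24675 in DUKs and 28481 in DBA, a range of 1.32-fold. Gpd2, the glycerol phosphate dehydrogenase that feeds electrons to ubiquinone, had 1086, 1098, 3193 and 2221. It was low in both DU6 lines, 2.94-fold below DUKs in DU6 and 2.02-fold below DBA in DU6i, and in both its signal lay just over the floor. Carriers of ADP, phosphate and ions had medians of 0.090 and 0.11 in the same pairs, and for Vdac2, a pore of the outer membrane, DU6 lay 2.06-fold below DUKs, at 4377 against 9020. DUKs and DBA, the high lines for Gpd2 and Vdac2, also had the higher summed signals of spermatid genes. Any part of those in the Gpd2 and Vdac2 ratios was not tested. The citric acid cycle had medians of 0.22 and 0.20, and regulators of mitochondrial biogenesis 0.045 and -0.077, with no gene of either at 2-fold. No list was tested.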

How the data were processed

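RNA pools of 4 mouse lines were measured on 8 Affymetrix arrays. Per the labels, the authors computed 1 intensity per probe set with Affymetrix software, namely Data Mining Tool 1.2 and Microarray Suite 4.0.1, and scaled the arrays through all their probe sets. The intensity values as deposited are linear, partly negative and carry no depth, so the number of arrays limits the precision. Genome coordinates of probes were not used. Gene symbols came from the platform annotation, and the probe set with the highest mean signal stood for its gene. A pair of lines was compared within a chip, on the log2 scale, where either array exceeded the floor. Differences were counted at 2-fold, with no test in a pair.

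DU6 and DU6i were tested against DUKs and DBA with limma 3.58.1 (lmFit and eBayes) in R 4.3.3, on log2 of floored signals, for probe sets that exceeded the floor on 2 or more arrays, after a check on simulated data. Other steps used Python 3.11.15 and pandas 2.3.3. Named members were those at 2-fold in any pair, the extremes of each complex in DU6 against DUKs and DU6i against DBA, tissue isoforms, and genes with more than 1 probe set; other members named were chosen after their values were seen. From the pathway lists, genes at 2-fold in those pairs were named, with Cycs added after its values were seen. Members and lists were chosen with earlier results of these data known. Other normalisations, floors, filters and subsets were tried. Detection calls were not used here.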

Additional observations from a re-analysis of the deposited data

Results flagged for a closer look

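Several subunits had opposite ratios in DU6 against DUKs and in DU6i against DBA, each past 1.5-fold in both. The log2 ratios were -0.98 and 0.90 for Atp5b, -0.75 and 0.72 for Cox6a1, and -0.74 and 0.68 for Cox8a. For Cox7a2l they were 0.87 and -0.67, and for Cox8b 1.84, a bound, and -0.83. After quantile normalisation these were -0.39 and 0.16 for Atp5b, -0.17 and 0.012 for Cox6a1, and -0.18 and -0.019 for Cox8a, no longer opposite in Cox8a. Those of Cox7a2l were 0.71 and -0.80, and those of Cox8b 1.75 and -0.69. With 1 pool per line the difference between the pairs was not tested. Atp5b, Cox6a1 and Cox8a followed the order of the 99th percentiles of chip A.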

How the results depend on the processing

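Medians of a few hundredths had no stable sign. The median of all members in DU6i against DBA turned to -0.019 under quantile normalisation and -0.042 under cyclic loess. In DU6 against DUKs it ranged from -0.086 (median scaling) to 0.33 (without probe sets over 10000). In DU6 against DU6i it turned to 0.14 under quantile normalisation, 0.11 under loess, 0.13 without probe sets over 10000 and 0.34 on chip B alone. In DU6 against DBA it was 0.010 without probe sets over 10000 and 0.21 on chip B, and in DU6i against DUKs -0.050 on chip B. Complex medians turned as well. Complex I was -0.015 (quantile) and -0.051 (loess) in DU6i against DBA, and in DU6i against DUKs -0.0079 (quantile), -0.012 (without probe sets over 10000) and -0.46 (chip B). Complex III was -0.076 (quantile) and -0.15 (loess) in DU6i against DBA. Complex IV was -0.65 on chip A and without family probe sets (names ending in _f_at) and -0.017 under loess in DU6 against DU6i, 0.093 on chip B in DU6 against DBA, and -0.045 on chip B in DU6i against DUKs. ATP synthase was -0.030 (loess) in DU6i against DBA, and in DU6 against DU6i 0.25 (quantile) and 0.17 (loess). The difference between the highest and lowest complex median moved to 0.74 on chip A and without family probe sets in DU6 against DUKs, and to 1.02 on chip B in DUKs against DBA. Genes at 2-fold or more in DU6 against DUKs numbered 2 under quantile normalisation and median scaling, and 0 with the floor doubled, with both arrays above the floor, on chip B, or without family probe sets. In DU6i against DBA there was 1 under median scaling and 1 under loess. In DU6 against DU6i there were 0 without probe sets over 10000, on chip B or under loess. In DUKs against DBA there were 2 with the floor added and no filter or without probe sets over 10000, and 1 on chip A, under loess or without family probe sets. In DU6 against DBA there were 0 under quantile normalisation, without probe sets over 10000, on chip A or under loess. In DU6i against DUKs there was 1 under quantile normalisation, with the floor doubled, with both arrays above the floor, without probe sets over 10000, on chip A, on chip B or under loess, and 0 without family probe sets. At 1.5-fold the counts were 8 in DU6 against DUKs, 7 in DU6i against DBA, 10 in DU6 against DU6i, 8 in DUKs against DBA, 5 in DU6 against DBA and 6 in DU6i against DUKs. Members highest in DU6i numbered 10 under quantile normalisation and 9 under loess. Apart from fewer genes, where subsets were used, the cause was not tested. Subunits past limma's threshold numbered 0 in every alternative, from 0 to 0 when 1 line was left out. No paired analysis was possible because each group holds 1 array and the groups share fewer than 2 replicate numbers. Loess, the omission of family probe sets and the addition of probe sets with several symbols were chosen after seeing the data. Signals near the floor, such as those of Cox8b in DUKs and Ndufa10, give bounds only, and the pools give no error between animals.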

Other observations

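Of the 3 probe sets with several symbols, the one shared by Ndufs5 and its pseudogene had signals of 13403 in DU6, 23101 in DU6i, 15865 in DUKs and 14702 in DBA. The one shared by Cox5b and Gm34962 had 13541, 21050, 15317 and 13947. Both were on chip A and highest in DU6i. The one shared by Cox6c and Cox6c2 was under the floor in every line.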
